A study of Homo sapiens with 12 samples.

Results

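Chaperones hold newly made or damaged proteins until they fold. HSP70 proteins bind short exposed stretches of a client, J-domain proteins bring the client and trigger the ATP cycle of HSP70, and BAG and HSP110 proteins exchange its nucleotide so that the client is released. HSP90 acts later on clients such as kinases and receptors, the ring-shaped CCT complex folds actin and tubulin, and the mitochondrial chaperonin HSPD1 works with its lid HSPE1. Many of these genes are activated by HSF1, the heat shock transcription factor, which binds repeats of an inverted GAA unit in their promoters. The data described here are the levels of 48 such genes, chosen by name from the heat shock protein, co-chaperone and CCT families, among the 58884 genes of the count table. All 48 were found, 47 by their present symbol and HSPB11 by its older one.

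RNA was sequenced from U2932 and TMD8, 2 established diffuse large B-cell lymphoma (DLBCL) cell lines labelled WT. Each line was 1 cell population that was divided and grown apart for a week into 2 cultures. Cells of each culture were then given, for 4 h, 20 µg/mL of rituximab (R) or ofatumumab (OF), monoclonal antibodies against different epitopes of CD20, or of a human IgG1 isotype antibody as control, so that each of the 6 conditions had 2 libraries. The comparisons ask what each antibody did to the transcripts of each line, and whether the antibodies or the lines differed. As both cultures come from 1 line, p-values measure the spread between cultures of that line.

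The libraries held 15440226 to 27110612 counts. The B-cell genes MS4A1, CD79A, CD79B, PAX5 and IRF4 were at 43.1 CPM (counts of a gene scaled to a fixed total per library) or more in all 12 libraries. The T-cell genes CD3D, CD3E and CD2 and the myeloid genes CD14, LYZ and FCGR3A were below 1 CPM in every library, and the epithelial marker EPCAM was at up to 37.1 CPM in U2932 and 0.206 CPM in TMD8, and the fibroblast gene COL1A1 at up to 0.513 and 5.13 CPM. TMD8 OF replicate 2 and TMD8 isotype replicate 2 stood apart. Their shares of ribosomal protein transcripts, 7.78% and 7.05%, were below the 10.9% to 11.8% of the other 4 TMD8 libraries, and so were those of mitochondrial transcripts, at 3.73% and 3.99% beside 5.70% to 6.23%. Replicates differed by a chi-square of 62.2 per degree of freedom for TMD8 OF, 106 for TMD8 isotype and 2.42 to 10.8 for the other 4 conditions, where 1 would be counting error. The counts of members that passed in TMD8 are therefore given with and without these libraries. Values of single genes are given without them for a few only.

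The heat shock element was searched in RefSeq promoters (GRCh38.p14), over the 250 bases before the start of transcription. A pair of units was GAANNTTC or TTCNNGAA, each of which is its own reverse complement, and 3 units meant GAA, TTC and GAA, or TTC, GAA and TTC, each with 2 bases between them. An element of 3 units therefore holds both kinds of pair. Of 42 members with a promoter in the table, 8 (19%) held 3 units and 18 (42.9%) held at least a pair. Among all 35116 promoters 0.441% held 3 units and 11.6% a pair. By motif, GAANNTTC was in 16 members (5.78% of all promoters) and TTCNNGAA in 10 (6.62%). Members were counted by gene, with up to 3 promoters each, so the shares are not of quite the same things. HSPA14, FKBP4, ST13, STUB1, CCT6A and HSF1 were not in the table. The elements below are those of all 8 members with 3 units, with the nearer of them where a promoter held more, and the pair nearest to the start of DNAJB1. Capitals mark the units and the bases between them.
HSPA8: cccTTCTGGAAGGTTCtaa
HSP90AA1: ttcTTCCGGAAGGTTCggg
HSP90AB1: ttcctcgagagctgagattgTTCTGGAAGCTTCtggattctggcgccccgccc
HSPD1: attTTCTGGAAAGTTCTGGAAccg
CHORDC1: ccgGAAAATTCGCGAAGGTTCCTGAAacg
HSPA6: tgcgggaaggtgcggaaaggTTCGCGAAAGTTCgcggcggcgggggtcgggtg
DNAJB6: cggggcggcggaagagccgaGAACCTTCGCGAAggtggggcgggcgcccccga
SERPINH1: actTTCCAGAAGTTTCtcg
DNAJB1: ctgGAAGCTTCcgc
The HSPA8 element lies at chr11:123062176-123062194 on the minus strand and begins 55 bases before the start, and a further element of 3 units begins 230 bases before it. The HSP90AA1 element (chr14:102087117-102087135, minus strand) begins 88 bases and the HSP90AB1 element (chr6:44247811-44247863, plus strand) 112 bases before it, with another at 165 bases. CHORDC1 (chr11:90223084-90223112, minus strand) holds the longest run, 23 bases, beginning 60 bases before its start. The HSPD1 run (chr2:197500065-197500088, minus strand) begins 245 bases before the start of HSPD1 and lies where exons of HSPD1 and of the divergent neighbour HSPE1 overlap on opposite strands. Those of HSPA6 (chr1:161524446-161524498, plus strand), DNAJB6 (chr7:157336853-157336905, plus strand) and SERPINH1 (chr11:75562174-75562192, plus strand) begin 74, 131 and 76 bases before the start. The DNAJB1 pair (chr19:14518434-14518447, minus strand) begins 47 bases before it, and another pair 77 bases before it. The elements of HSPA8, HSP90AA1, CHORDC1 and SERPINH1 overlap annotated exons of the same gene, and those of HSP90AB1, HSPA6, DNAJB6 and DNAJB1 overlap none. A match is a sequence, not a measured binding site.

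**Figure D1:**
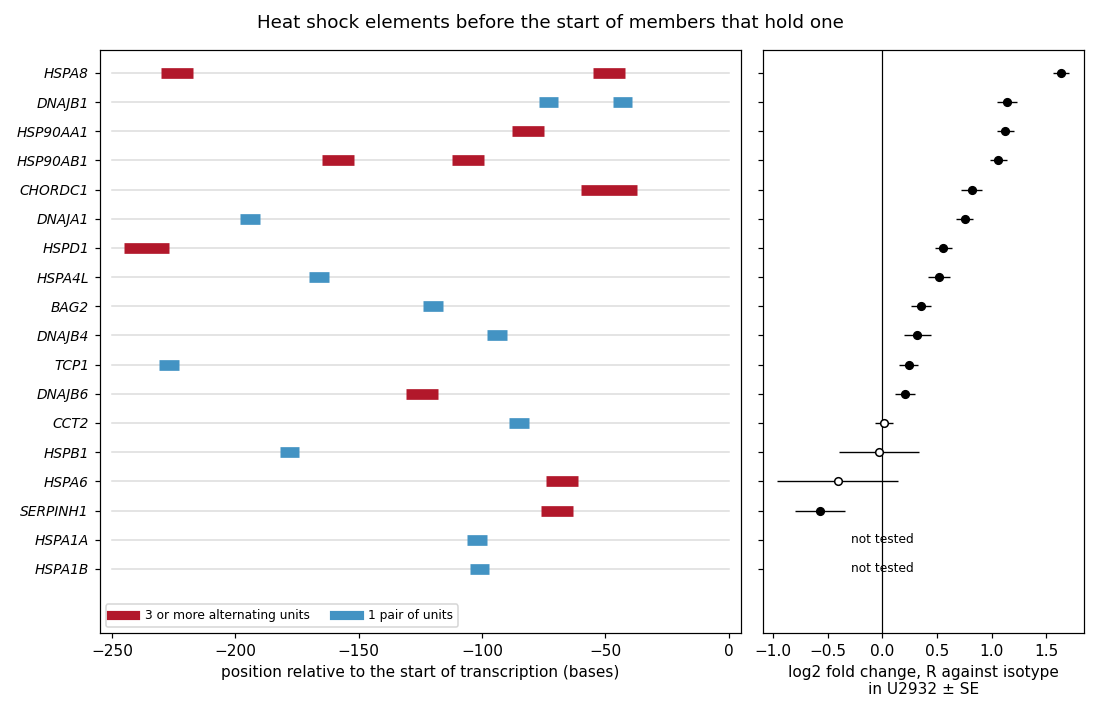
Left, position of elements of 3 or more units (red) and of pairs (blue) in the 250 bases before the start, in bases, for the 18 members that hold one. Right, log2 fold change between R and isotype in U2932 ± SE, filled where the adjusted p was under 0.10. HSPA8, at the top, rose by 1.63 and holds 2 red elements, SERPINH1, near the bottom, holds 1 and fell by 0.57, and HSPA1A and HSPA1B were not tested.

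Levels are CPM normalized by the trimmed mean of M values (TMM), and per kilobase of the longest transcript where genes are compared with each other. Under isotype HSP90AB1 was the highest member in both lines, at 671.5 CPM per kb in U2932 and 1440 in TMD8. In U2932 it was followed by HSP90AA1, the stress-inducible HSP90, at 551 CPM per kb, HSPD1 at 486 and HSPA8, the constitutive cytosolic HSP70, at 312. The libraries of HSP90AB1 (614 and 729 CPM per kb) lay above those of HSP90AA1 (516 and 586), which overlapped by a little with those of HSPD1 (454 and 519). HSPA8 was below HSPD1 without overlap, and its libraries (305 and 319) overlapped with those of CCT7 (301 and 307). In TMD8 the order after HSP90AB1 was HSPA8 at 1044, HSP90AA1 at 874 and HSPD1 at 824 CPM per kb, where the SDs of 248, 233 and 154 CPM per kb exceeded these steps. The lowest tested members per kb were HSPA6, BAG3, SERPINH1 and HSPB1 in U2932, all at 1.28 CPM per kb or less, and HSPA6, HSPA4L and BAG3 in TMD8, at 4.11 to 5.71 CPM per kb. The stress-inducible HSP70 genes HSPA1A and HSPA1B had almost no counts. HSPA1A had 4 counts and HSPA1B 0 in all 12 libraries together, where a count of 0 over 222708706 counts allows up to 0.0135 CPM for counting error alone. These genes share 72.6% of the 50-base stretches of HSPA1A, and how reads that fit both were counted was not tested. Neither gene passed the filter on low counts, so 46 members were tested. HSPA6, another inducible HSP70, was at 0.321 to 0.627 CPM in U2932 and at 4.93 to 18.9 CPM in TMD8. It shares 45.5% of its 50-base stretches with HSPA7, and the effect of this on its level was not tested.

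In U2932 most members were higher with either antibody. In bulk RNA a change per cell and a change in the share of cells that express a gene cannot be told apart. A member passed where the edgeR quasi-likelihood test gave a Benjamini-Hochberg adjusted p under 0.10. With R, 30 of the 46 tested members were higher (65.2%, against 16.8% of the 14635 genes tested) and 4 lower (17.4% of all genes). With OF, 26 were higher (18.7% of all genes) and 4 lower (17.8%). All 34 members that passed with R and all 30 that passed with OF had libraries that did not overlap with isotype. A pass with 2 libraries in each group makes this likely, and the share among all genes that passed was not computed. With both antibodies 26 members were higher and 3 lower, also without a count over all genes. These comparisons share the 2 isotype libraries. Of the members that rose, 14 with R (5.19% of all genes) and 13 with OF (5.9%) did so by at least 1.5-fold, and 1 fell that far with R (5.02%) and 0 with OF (5.21%), where edgeR and DESeq2 each called 4 lower by less and 4 had an unadjusted p under 0.05. With library size alone as the scaling, which put the median of all genes at −0.12 with R and −0.07 with OF, 24 members rose and 7 fell with each antibody. The median log2 fold change over the members was 0.34 with R and 0.32 with OF, beside −0.02 and 0.01 over all genes tested. The share of ribosomal protein transcripts also moved with treatment, from 5.24% and 4.90% under isotype to 6.69% to 7.27% in the antibody libraries, and its part in these results was not tested. Together the 48 genes took 1.51% and 1.59% of the counts under isotype, 2.31% and 2.36% with R and 2.24% and 2.21% with OF.

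HSPA8 and its release factor HSPH1 were among the members that rose most. HSPA8 was at 750.1 and 787 CPM under isotype, 2348 and 2485 CPM with R and 2166 and 2207 CPM with OF. Every antibody library was thus more than 2-fold above both isotype libraries, a rise on the log2 scale of 1.63 ± 0.07 (SE) with R, at an adjusted p of 4.54e-14, and of 1.49 ± 0.07 with OF, at 2.31e-13. HSPH1, an HSP110 protein that exchanges the nucleotide of HSP70 and keeps aggregates soluble, was at 139 and 152 CPM under isotype, at 366 and 362 CPM with R and at 376 and 349 CPM with OF. It rose by 1.31 ± 0.09 (adjusted p = 4.77e-11) and 1.30 ± 0.09 (adjusted p = 5.91e-11). The HSP110 genes HSPA4 and HSPA4L rose less, by 0.27 and 0.52 with R and 0.21 and 0.43 with OF, and HSPA14, an HSP70-like protein of the ribosome, fell by 0.28 and 0.40. HSPA6 was too low to tell, with a log2 difference of −0.41 ± 0.55 for R and −0.06 ± 0.53 for OF. BAG1, which links HSP70 to the proteasome, was at 82.1 and 85.6 CPM under isotype, 155 and 166 CPM with R and 157 and 158 CPM with OF, a rise of 0.92 ± 0.09 and 0.89 ± 0.09. BAG3, a stress-inducible partner of HSP70 in selective autophagy, stood at 2.36 and 1.75 CPM under isotype, 4.08 and 3.26 with R and 4.25 and 3.48 with OF. Both antibody groups lay above isotype but at low counts, and the call with R (0.81 ± 0.25, adjusted p = 0.014) was lost without R replicate 1 (0.64) or isotype replicate 2 (0.61), and in the fit of all 12 libraries with either antibody. BAG2, which restrains the ubiquitin ligase STUB1, rose by 0.35 and 0.31. It shares 43.9% of its 50-base stretches with other genes, most with RAB23 on the opposite strand, and the strand setting of the counting is not given in the sources used here.

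**Figure D2:**
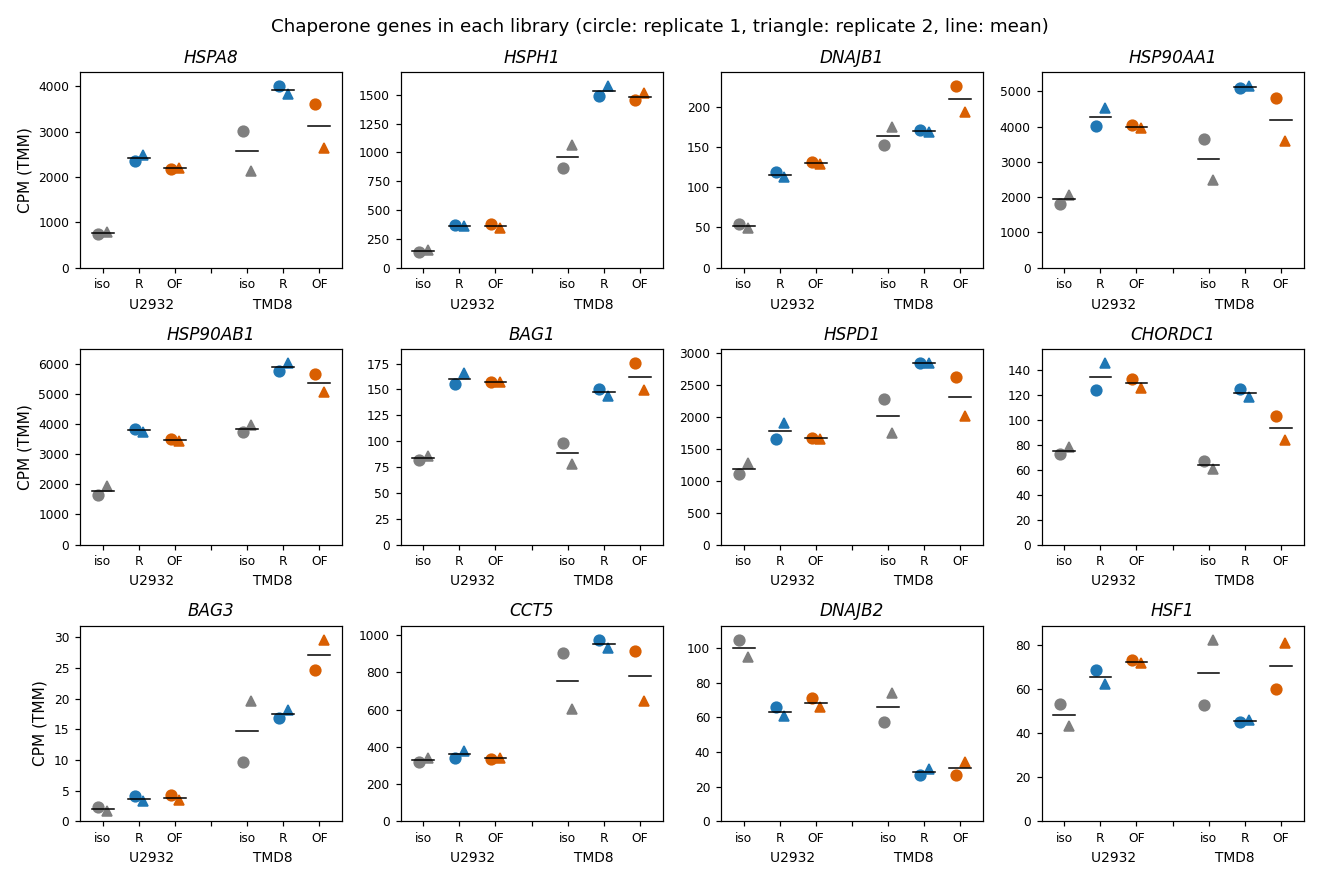
CPM (TMM) of 12 members in each library, by cell line and antibody, with replicate 1 as circles, replicate 2 as triangles and the mean as a line; each panel starts at 0. In U2932 the R and OF points lie above isotype except for CCT5, whose groups nearly coincide, and DNAJB2, which lies below; in TMD8 the replicates of OF and isotype are further apart.

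Both HSP90 genes about doubled. HSP90AA1 was at 1813 and 2057 CPM under isotype, 4026 and 4522 with R and 4042 and 3945 with OF, which is 1.13 ± 0.08 and 1.03 ± 0.08 on the log2 scale. HSP90AB1, the constitutive form, was at 1643 and 1948 CPM under isotype, 3855 and 3732 with R and 3499 and 3456 with OF, or 1.06 ± 0.08 and 0.94 ± 0.08. The lowest antibody library of each gene lay well above the higher isotype library. HSP90AA1 shares 21.4% and HSP90AB1 18.8% of their 50-base stretches with other genes, mostly processed copies.

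Of the 9 co-chaperones of HSP90 and HSP70, 8 rose with each antibody and none fell. STIP1, which hands clients from HSP70 to HSP90, was at 277 and 288 CPM under isotype, 533 and 502 with R and 468 and 496 with OF, a rise of 0.85 ± 0.08 and 0.75 ± 0.08. CACYBP, a partner of the SGT1 and SIAH1 ubiquitin machinery, went from 158 and 169 CPM to 281 and 310 with R and 282 and 271 with OF (0.84 ± 0.09 and 0.74 ± 0.09). CHORDC1, an HSP90-binding protein, was at 72.3 and 78.3 CPM under isotype, 124 and 145 with R and 133 and 126 with OF (0.82 ± 0.10 and 0.76 ± 0.10). AHSA1 activates the ATPase of HSP90 and was at 219 and 225 CPM under isotype, 376 and 390.4 with R and 367 and 357 with OF (0.77 ± 0.08 and 0.69 ± 0.08). FKBP4, the immunophilin of steroid receptor complexes, was at 175 and 179 CPM under isotype, 287 and 269 with R and 278 and 269.8 with OF (0.63 ± 0.08 and 0.61 ± 0.08). In each of these 5 genes both R and both OF libraries lay above isotype. The smaller rises were those of PTGES3, the p23 co-chaperone (0.42 and 0.38), ST13, which steadies client binding to HSP70 (0.41 and 0.32), and CDC37, the kinase adaptor of HSP90 (0.29 and 0.35). STUB1, the ubiquitin ligase that marks chaperone clients for destruction, did not pass (0.11, adjusted p = 0.437, and 0.04, adjusted p = 0.837).

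The J-domain genes went both ways. DNAJB1, the main partner of HSPA8 in disaggregation, was at 53.8 and 49.4 CPM under isotype, 118 and 112 with R and 131 and 128 with OF. It rose by 1.14 ± 0.09 (adjusted p = 1.71e-09) and 1.31 ± 0.09 (adjusted p = 2.3e-10). DNAJA1 was at 478 and 496 CPM under isotype, 808 and 854 with R and 782 and 785 with OF (0.75 ± 0.08 and 0.67 ± 0.08). DNAJC7, which binds HSP70 and HSP90, rose by 0.32 and 0.26, while DNAJB4 (0.32, adjusted p = 0.0577) and DNAJB6 (0.21, adjusted p = 0.0872) passed with R alone, at 0.17 (adjusted p = 0.349) and 0.20 (adjusted p = 0.104) with OF. DNAJB2, which carries ubiquitin-binding motifs and sends clients to the proteasome, was instead at 105 and 95.2 CPM under isotype, 65.9 and 60.9 with R and 71.0 and 66.1 with OF. All 4 antibody libraries were below both isotype libraries, a fall of 0.67 ± 0.10 (adjusted p = 8.33e-06) and 0.56 ± 0.10 (adjusted p = 8.14e-05). DNAJA2, a close relative of DNAJA1, also fell, by 0.37 ± 0.09 and 0.41 ± 0.09, with 213 and 219 CPM under isotype and 158 to 171 CPM with the antibodies.

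The mitochondrial pair rose while the other 3 mitochondrial members did not. HSPD1 went from 1114 and 1273 CPM to 1661 and 1901 with R and 1680 and 1653 with OF (0.56 ± 0.08 and 0.46 ± 0.08). HSPE1 went from 14.3 and 14.0 CPM to 24.9 and 27.1 with R and 21.6 and 21.3 with OF (0.86 ± 0.12 and 0.58 ± 0.12). HSPE1 shares 52.9% of its 50-base stretches with other genes and HSPD1 25%. The largest share of HSPE1, 25.7%, is with HSPD1 itself, whose exons overlap it on the opposite strand. The effect of this sharing on their levels, and on their rising together, was not tested. HSPA9, the mitochondrial HSP70, was at 715 and 791 CPM under isotype, 685 and 732 with R (−0.11, adjusted p = 0.354) and 649 and 672 with OF, where it fell by 0.21 (adjusted p = 0.0521). TRAP1, the mitochondrial HSP90, and DNAJA3, a mitochondrial J-domain protein, did not pass and lay between −0.17 and 0.07. Among the 7 mitochondrial proteases, 1 rose and 2 fell with R and 2 rose and 2 fell with OF, with medians of 0.05 and 0.09.

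Within the CCT complex, whose 8 subunits form 1 ring, the transcripts did not move together. CCT6A (0.47), CCT4 (0.43), CCT3 (0.40) and TCP1 (0.24) rose with R, and CCT4 (0.35), CCT3 (0.34) and CCT6A (0.32) with OF, where TCP1 was at 0.17 (adjusted p = 0.15). CCT2, CCT5, CCT7 and CCT8 did not pass with either antibody, and their log2 differences lay between −0.11 and 0.12 with an SE of 0.08 to 0.09. CCT5 was at 317 and 339 CPM under isotype and 337 to 379 CPM with the antibodies, and overlapped with OF. It shares 49.8% of its 50-base stretches with other genes, most with an antisense gene. Of the 12 genes for prefoldin, which delivers clients to CCT, and for the tubulin cofactors, 11 were tested and 2 rose and 1 fell with each antibody.

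Among the regulators HSF1 rose with both antibodies, and neither small heat shock protein passed. HSF1 was at 53.3 and 43.0 CPM under isotype, 68.4 and 62.3 with R and 73.1 and 71.6 with OF, and rose by 0.42 ± 0.11 (adjusted p = 0.00389) and 0.57 ± 0.11 (adjusted p = 0.000224). HSBP1, a small protein that binds HSF1, rose by 0.28 with R and was at 0.21 with OF (adjusted p = 0.101). HSF2 was at −0.29 (adjusted p = 0.118) and −0.23 (adjusted p = 0.204). HSPB1, the small heat shock protein of many epithelia, was at 0.89 to 1.77 CPM in all 6 U2932 libraries, with overlapping groups. HSPB11, which is now known as a part of ciliary transport, was at 0.18 and 0.06 and did not pass. SERPINH1, the collagen chaperone of the endoplasmic reticulum, was at 4.10 and 3.90 CPM under isotype, 2.26 and 3.16 with R and 3.84 and 3.19 with OF. It was lower with R by 0.57 ± 0.23 (adjusted p = 0.0613) and at −0.20 (adjusted p = 0.531) with OF.

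With the replicate number as a block, HSF2 also passed with R, where it fell by 0.29 (adjusted p = 0.0625), and DNAJB6 (0.20, adjusted p = 0.0778), TCP1 (0.17, adjusted p = 0.0936) and HSBP1 (0.21, adjusted p = 0.0723) rose with OF. With all 12 libraries in 1 fit, whose spread includes that of TMD8, the members that rose in U2932 numbered 14 with R and 13 with OF.

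**Figure D3:**
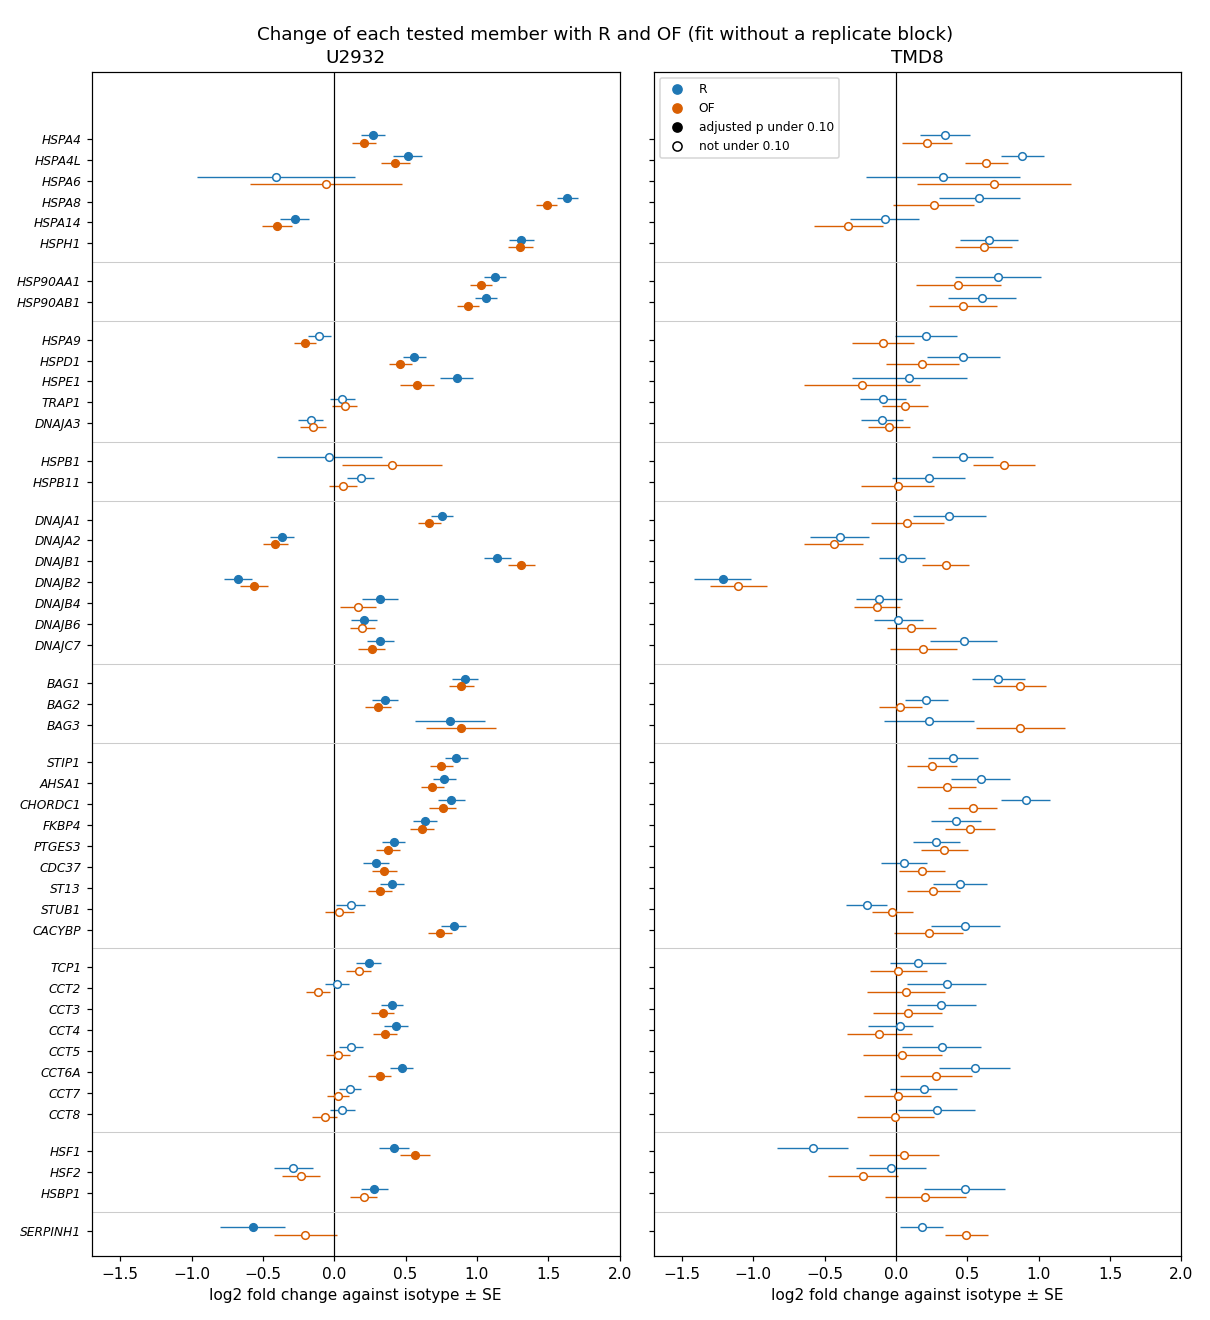
Log2 fold change against isotype ± SE for the 46 tested members with R (blue) and OF (orange), in U2932 (left) and TMD8 (right), by subfamily; filled points had an adjusted p under 0.10 without a replicate block. In U2932, HSPA8 is furthest to the right and DNAJB2 furthest to the left; in TMD8 the bars are wider and DNAJB2 with R, at −1.22, is the 1 filled point.

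In TMD8 no member passed as higher with either antibody in the same test, although the medians of the members, 0.30 with R and 0.18 with OF, were above those of all 14227 genes tested (−0.02 and −0.01). The median with OF rested on single libraries, at −0.003 without OF replicate 1, where that of all genes was −0.02, 0.03 without isotype replicate 2, 0.30 without OF replicate 2 and 0.34 without isotype replicate 1. The median with R was 0.19 without isotype replicate 2 and otherwise 0.29 to 0.41. By edgeR 0 members were higher with R (0.401% of all genes) and 0 with OF (0.471%), 1 was lower with R (0.246%) and 0 with OF (0.344%). At an unadjusted p under 0.05, 9 members were higher with R and 8 with OF, and 1 was lower with each. Of all 14227 genes tested, 2265 with R and 2009 with OF had such a p, in either direction. DESeq2 called 5 members higher and 1 lower with R, and 2 higher and 1 lower with OF. Its counts over all genes are not given here. The median SE of a member was 0.22, against 0.09 in U2932. With the block, which compares libraries within a culture, 14 members rose (8.99% of all genes) and 3 fell (8.73%) with R, and 9 rose (7.45%) and 2 fell (6.87%) with OF. Without OF replicate 2 and isotype replicate 2, 19 rose (15.9%) and 5 fell (14.4%) with R, and 15 rose (12.5%) and 4 fell (10.9%) with OF. That fit keeps a single isotype and a single OF library, which are assumed to vary like the R libraries.

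DNAJB2 was the member that passed in TMD8 without a block. It was at 57.2 and 74.3 CPM under isotype, 26.91 and 30.35 with R and 26.96 and 34.56 with OF. No antibody library reached the lower isotype library, and it fell by 1.22 ± 0.20 with R (adjusted p = 0.0989). This call was lost without R replicate 1, R replicate 2 or isotype replicate 2, with log2 fold changes of −1.13, −1.29 and −1.03. With OF the difference was −1.11 ± 0.20 (adjusted p = 0.106). The block gave falls of 1.21 (adjusted p = 0.00255) and 1.11 (adjusted p = 0.00481). DNAJA2, at 268 and 223 CPM under isotype, was at 205 and 173 with R and 206 and 159 with OF, and passed with the block, falling by 0.39 (adjusted p = 0.0865) and 0.44 (adjusted p = 0.0699), and also without both libraries that stood apart (−0.54 and −0.41).

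Among the members that rose with the block in TMD8, HSPH1 was at 866 and 1061 CPM under isotype, 1489 and 1573 with R and 1454 and 1512 with OF. R and OF both lay above isotype without overlap, and the blocked values were 0.66 (adjusted p = 0.0398) and 0.62 (adjusted p = 0.0521), against an adjusted p of 0.204 and 0.252 without the block. HSPA4L (0.89, adjusted p = 0.00655, and 0.64, adjusted p = 0.0218), CHORDC1 (0.91, adjusted p = 0.00586, and 0.53, adjusted p = 0.0372) and BAG1 (0.73, adjusted p = 0.015, and 0.87, adjusted p = 0.00983) also rose with both antibodies. HSPA4L was at 55.0 and 64.5 CPM under isotype, 108 and 116 with R and 93.4 and 93.2 with OF. CHORDC1 was at 67.3 and 60.2 CPM under isotype, 125 and 118 with R and 103 and 83.7 with OF, and BAG1 at 98.3 and 78.2, 151 and 144, and 175 and 149 CPM. HSPB1, which was readily measured in TMD8, was at 68.5 and 95.6 CPM under isotype, 101 and 129 with R and 130 and 149 with OF. Its blocked values were 0.47 (adjusted p = 0.0533) and 0.77 (adjusted p = 0.0134), and each culture was higher with R than with isotype and higher again with OF.

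HSPA8 and both HSP90 genes rose with R in the blocked fit and did not pass with OF. HSPA8 was at 3004 and 2140 CPM under isotype, 3995 and 3831 with R and 3600 and 2631 with OF. R lay above both other groups, while OF and isotype overlapped, with replicate 2 low in both. The blocked values were 0.61 (adjusted p = 0.0848) with R and 0.27 (adjusted p = 0.437) with OF. HSP90AA1 took the same form, at 3648 and 2490 CPM under isotype, 5084 and 5138 with R and 4802 and 3587 with OF (0.75, adjusted p = 0.0601, and 0.45, adjusted p = 0.233). HSP90AB1 did not, at 3732 and 3966 CPM under isotype, 5779 and 6031 with R and 5677 and 5078 with OF (0.60, adjusted p = 0.0888, and 0.47, adjusted p = 0.176), so that both antibody groups lay above isotype. With the block AHSA1, ST13, CACYBP, DNAJC7, CCT6A and HSBP1 also rose with R (0.45 to 0.61) and did not pass with OF, and FKBP4, BAG3, HSPA6 and SERPINH1 rose with OF (0.49 to 0.91) and did not pass with R. None of these passed in the direct comparison of R with OF in the same fit. Within replicate 1, the log2 changes with R and OF against isotype were 0.41 and 0.26 for HSPA8. They were 0.48 and 0.40 for HSP90AA1, and 0.63 and 0.61 for HSP90AB1. The ribosomal protein and mitochondrial shares moved with replicate 2 of OF and isotype, and their part in these values was not tested.

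DNAJB1 in TMD8 was at 152 and 174 CPM under isotype, 171 and 169 with R and 225 and 193 with OF. R lay within the isotype range (0.04 ± 0.16), and OF above it (0.35 ± 0.16, adjusted p = 0.398). HSF1 was at 52.5 and 82.0 CPM under isotype, 44.9 and 45.8 with R and 60.0 and 80.9 with OF. It fell with R in the blocked fit (by 0.55, adjusted p = 0.0611) and was at −0.25 (adjusted p = 0.169) without both libraries that stood apart. With a correction for GC content as well as the block, HSF1 did not pass as lower with R. Its GC content is 63.9%. With R in TMD8 the median log2 fold change was 0.14 in the lowest decile of genes by GC content and −0.27 in the highest. With OF these medians were −0.06 and 0.14. The difference of HSF1 between R and OF is not given here with that correction. BAG3 was at 9.69 and 19.7, 16.8 and 18.2, and 24.7 and 29.6 CPM, so only OF lay above isotype. The 8 CCT genes were all lower in replicate 2 than in replicate 1 of both isotype and OF, as CCT5 was at 902 and 601 CPM under isotype, 973 and 931 with R and 916 and 646 with OF. HSPE1 took the same form, at 41.2 and 20.2, 32.0 and 34.3, and 34.43 and 18.04 CPM, and its change with R was −0.36 in replicate 1 and 0.76 in replicate 2.

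**Figure D4:**
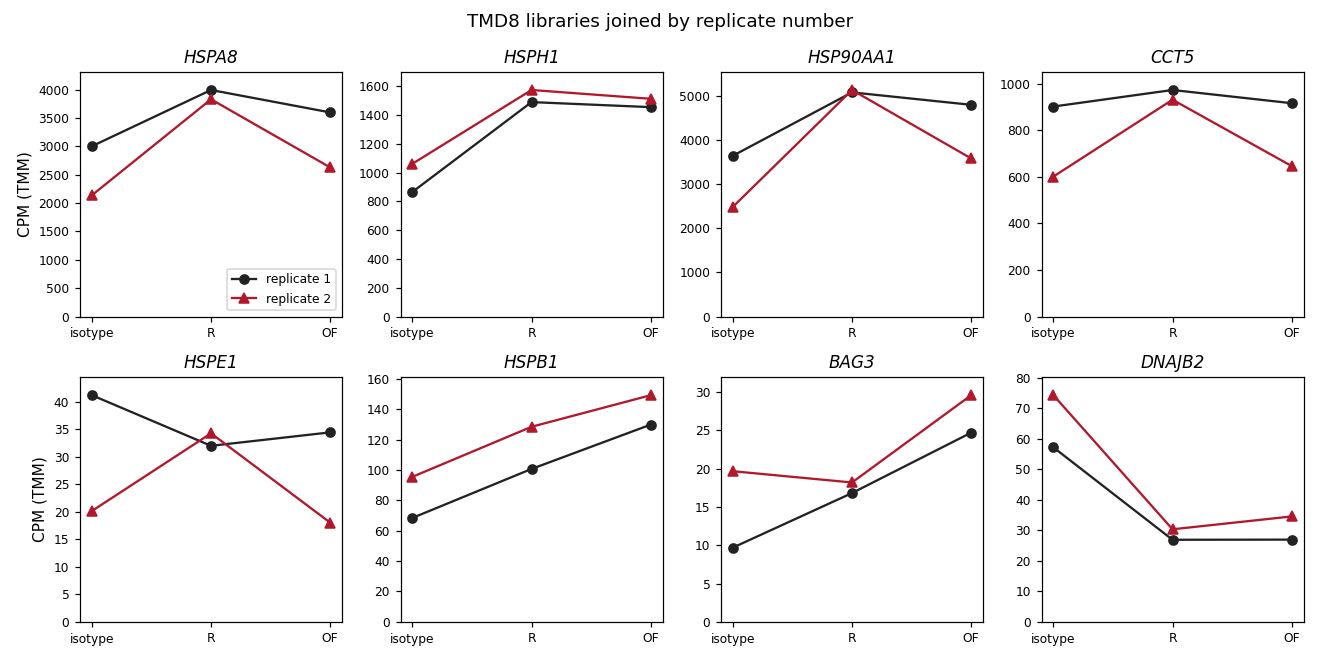
CPM (TMM) of 8 members in the 6 TMD8 libraries, with libraries of the same replicate number joined; the axis starts at 0. HSPA8, HSP90AA1, CCT5 and HSPE1 are far lower in replicate 2 under isotype and OF and close together with R. Against isotype, HSPE1 and BAG3 change in opposite directions in the cultures with R. The other genes shown change in the same direction in both cultures.

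No member passed in the direct comparison of R with OF. In U2932, at the limit of 0.30 used there, 0 members passed (0.00683% of all genes), and in TMD8, at 0.10, also 0 (0% of all genes), by edgeR and by DESeq2. At an unadjusted p under 0.05 there was 1 in each line, HSPE1 in U2932 (R above OF by 0.28 ± 0.11) and HSF1 in TMD8 (R below OF by 0.64 ± 0.25). Of all genes tested, 747 in U2932 and 582 in TMD8 had such a p. The R minus OF differences of the members lay between −0.44 and 0.28 in U2932 with a median SE of 0.09. In TMD8 they lay between −0.64 and 0.37 with a median SE of 0.22. In the TMD8 fit DNAJB2 with OF, at −1.11 against isotype, did not pass. Differences between R and OF larger than those seen could therefore also be missed there. Without the TMD8 libraries that stood apart, 3 members passed (4% of all genes), namely DNAJB1 (−0.41, adjusted p = 0.0384), BAG3 (−0.50, adjusted p = 0.0699) and HSF1 (−0.41, adjusted p = 0.0756), each lower with R than with OF. That fit rests on 1 OF library.

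The lines differed in how much of these transcripts they held under isotype. Members passed here at an adjusted p under 0.10 with a difference of at least 2-fold. By that rule 14 of 46 were lower in U2932 than in TMD8 (30.4%, against 21% of the 16187 genes tested) and 0 were higher (21.2% of all genes), as also by DESeq2. Without the limit on fold 32 were lower and 4 higher, and at an unadjusted p under 0.05 the numbers were the same. Of all 16187 genes tested, 10412 had such an unadjusted p, in either direction. The median of the members was −0.53, beside −0.02 over all genes. Since each line is 1 line, this compares these cultures.

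HSPB1 differed most, at 0.89 and 1.44 CPM in U2932 and 68.5 and 95.6 CPM in TMD8, a log2 difference of −6.15 ± 0.27 (adjusted p = 9.6e-09). HSPA6 (−4.29), SERPINH1 (−3.11), BAG3 (−2.87) and HSPH1 (−2.75) followed, where HSPA6 shares 45.5% of its 50-base stretches with HSPA7. HSPH1 was at 139 and 152 CPM in U2932 and 866 and 1061 CPM in TMD8, which is 6.74-fold. HSPA8 (−1.76), DNAJB1 (−1.68), DNAJA1 (−1.67), FKBP4 (−1.61), CCT5 (−1.22), DNAJB6 (−1.17), HSPE1 (−1.13), HSP90AB1 (−1.12) and CCT8 (−1.04) were the others. In each of the 14 genes both TMD8 isotype libraries lay above both U2932 libraries. A pass with 2 libraries in each group makes this likely, and the share among all genes that passed was not computed. Among all listed members, U2932 isotype lay below TMD8 isotype without overlap in 33 and above it in 6, while 9 overlapped. HSPB11 (0.75), DNAJB2 (0.58), HSPA14 (0.53) and BAG2 (0.38) were higher in U2932 by less than 2-fold. Of these, DNAJB2 and HSPA14 fell in U2932 with the antibodies, BAG2 rose and HSPB11 did not pass. The level and the change rest on the same U2932 isotype libraries. For BAG1 (−0.09 ± 0.14), HSF2 (−0.08 ± 0.21), DNAJA3 (0.10 ± 0.11) and HSBP1 (0.10 ± 0.22) the difference was smaller than its error.

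**Figure D5:**
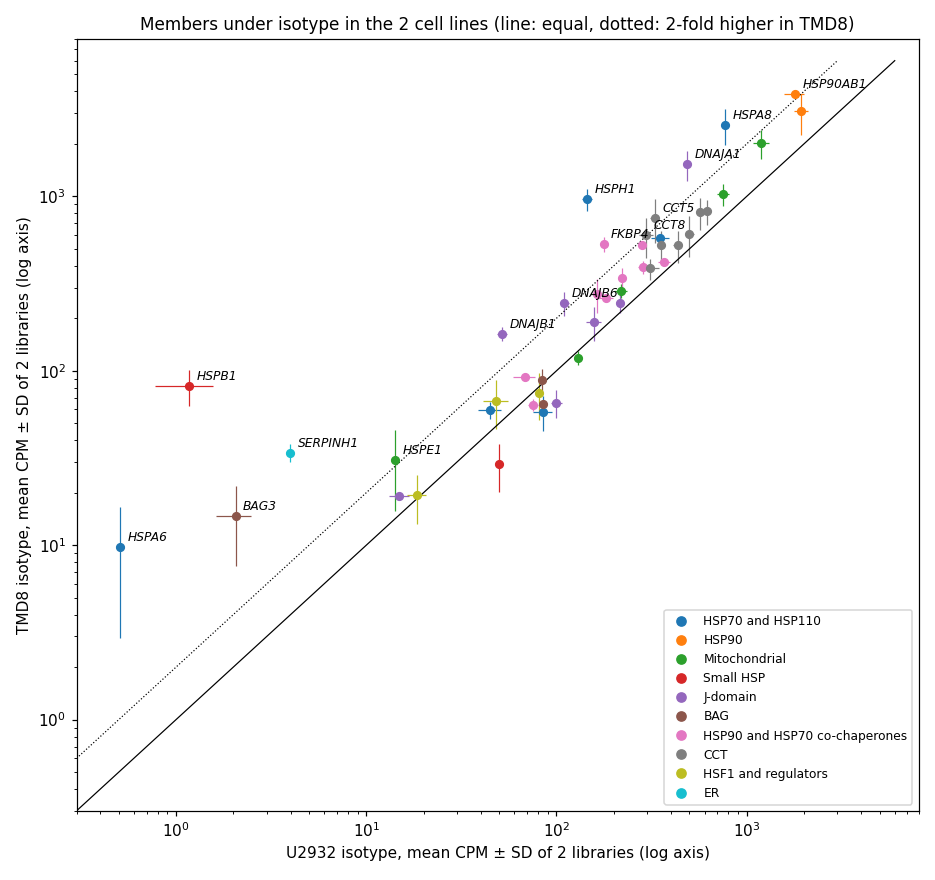
Mean CPM ± SD of the 2 isotype libraries in U2932 (x) and TMD8 (y), both on log axes, for the 46 tested members coloured by subfamily; the line marks equal levels and the dotted line 2-fold. Named genes are the 14 that passed, all above the dotted line, with HSPB1 and HSPA6 furthest from it.

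Whether the change with an antibody differed between the lines was tested as an interaction over all 12 libraries. For R, 1 of 46 members passed (0.321% of all genes). For OF 0 passed by edgeR (0.105%), and DESeq2 called 4, without a count over all genes. At an unadjusted p under 0.05 there were 8 members for OF, beside 1369 of the 16187 genes tested. DNAJB1 rose by 1.14 with R in U2932 and was at 0.04 in TMD8, and the difference between the changes was 1.11 ± 0.18 (adjusted p = 0.0511). Leaving out any 1 U2932 library, or either R library of TMD8, ended this call, with DNAJB1 differences of 1.04 to 1.17. For DNAJB1 with OF it was 0.97 ± 0.18 (adjusted p = 0.114). HSPA8 differed by 1.06 ± 0.27 (adjusted p = 0.176) with R and 1.23 ± 0.27 (adjusted p = 0.187) with OF. With the block 5 members passed for R (6.04% of all genes), DNAJB1 (adjusted p = 0.0064), HSPA8 (adjusted p = 0.0132), HSF1 (0.99, adjusted p = 0.0204), HSPH1 (0.66, adjusted p = 0.0423) and DNAJB2 (0.54, adjusted p = 0.0703), and 3 for OF (2.23%), HSPA8 (adjusted p = 0.0093), DNAJB1 (adjusted p = 0.0197) and HSPH1 (0.69, adjusted p = 0.0591). For DNAJB2 this means a smaller fall in U2932. Without both TMD8 libraries that stood apart, 14 members passed for R (16%) and 10 for OF (5.28%).

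The level that the U2932 antibody libraries reached was still below TMD8 isotype for several of these genes. HSPH1 was at 349 to 376 CPM in the 4 U2932 antibody libraries and at 866 and 1061 CPM in TMD8 isotype, and DNAJB1 at 112 to 131 against 152 and 174 CPM. DNAJA1 was at 782 to 854 CPM against 1738 and 1315 CPM. HSPA8, at 2166 to 2485 CPM, overlapped with the TMD8 isotype libraries (3004 and 2140 CPM), and HSP90AA1, at 3945 to 4522 CPM, was above both (3648 and 2490 CPM).

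The members with an element of 3 units did not all move in the same direction. In U2932 with R, 6 of the 8 rose (HSPA8, HSP90AA1, HSP90AB1, CHORDC1, HSPD1 and DNAJB6), SERPINH1 fell, and HSPA6 was at −0.41 ± 0.55. With OF 5 of them rose. Their median was 0.69 with R and 0.61 with OF, against 0.31 and 0.28 over the 32 tested members whose promoters lack it, of which 20 rose and 2 fell with R and 17 rose and 3 fell with OF. HSPH1, BAG1, BAG3, STIP1, AHSA1 and CACYBP rose at least 1.5-fold with both antibodies and had neither 3 units nor a pair in this window. These counts describe the letters of the promoters beside the changes.

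Genes from related lists give the setting. Of 14 further genes known as HSF1 targets 11 were tested in U2932, and 7 rose and 2 fell with R and 6 rose and 1 fell with OF. HMOX1, the heme-degrading enzyme, rose by 1.07 ± 0.15 with R and 0.97 ± 0.16 with OF, and DEDD2 by 0.66 and 0.78. Of 15 further co-chaperones 3 rose and 2 fell with R and 5 rose and 4 fell with OF, with medians of 0.00 and −0.01. BAG5, another nucleotide exchange factor of HSP70, fell by 0.48 and 0.59. The medians of the prefoldin list were 0.10 and 0.04. These counts stand beside 16.8% of all genes higher and 17.4% lower with R, and 18.7% and 17.8% with OF. With the block in U2932, UNC45A (0.19, adjusted p = 0.0936) and SUGT1 (0.19, adjusted p = 0.0942) also rose and GRPEL2 fell by 0.22 (adjusted p = 0.0755) with R, while TBCD rose by 0.22 (adjusted p = 0.0788) and IER5 fell by 0.21 (adjusted p = 0.0881) with OF. In TMD8 0 genes of the 4 lists passed by edgeR without the block, of 10 HSF1 targets, 15 co-chaperones, 11 prefoldin and cofactor genes and 7 proteases tested. With the block, 2 HSF1 targets rose and 2 fell with each antibody, 1 protease rose with R and 1 co-chaperone fell with OF. Of all genes tested in TMD8, 8.99% rose and 8.73% fell with R in that fit, and 7.45% and 6.87% with OF. DNAJB5 (0.90, adjusted p = 0.0125, and 0.93, adjusted p = 0.0136) and HMOX1 (0.39, adjusted p = 0.0826, and 0.74, adjusted p = 0.0136) rose with R and OF. IER5 fell by 0.60 (adjusted p = 0.0288) and the protease YME1L1 rose by 0.48 (adjusted p = 0.0629) with R, and ZFAND2A fell by 0.63 (adjusted p = 0.0713) and the co-chaperone GRPEL2 by 0.48 (adjusted p = 0.0604) with OF. The genes of this blocked comparison were named because the block changed their call.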

How the data were processed

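Per the labels and the study's methods, the authors trimmed reads with Trim Galore 0.6.0, aligned them to GRCh38 with STAR 2.7.0e and deposited whole-number counts per gene, which they analysed with DESeq2 1.26.0. The annotation release and the strand setting are not given in the sources used here. The counts of 12 libraries were fitted as deposited, with edgeR 4.0.16 in R 4.3.3 (TMM, filterByExpr with a minimum count of 10, quasi-likelihood test, Benjamini-Hochberg adjustment over all genes tested), in each line's 6 libraries, and in all 12 for differences between lines. DESeq2 1.42.0 was an alternative. A member passed at an adjusted p under 0.10 (0.30 for R against OF in U2932, and 2-fold as well between lines). The table held 58884 genes, of which 27447 had no count, and 48 members were matched by symbol. CPM used TMM over 12 libraries. The SE of a log2 fold change is from the edgeR fit and includes the spread between replicates. The floor for a count of 0 covers counting error only. Steps across all genes were tested on simulated data. The members and lists were chosen with earlier results of these data known. Values in every library are given for members that passed with at least 1.5-fold against isotype, and from each other list at most 5 such genes.

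Titles number the replicates 1 and 2, and the labels describe a separate culture for each, so the number was taken as the culture. Deviations from the group mean correlated between libraries of the same number by −0.05 to 0.10 in U2932 and 0.22 to 0.69 in TMD8. The blocked values are printed where they change the call of a member. For the related lists they are printed for some of the genes. Sharing was measured as the share of a gene's 50-base transcript stretches (GENCODE, GRCh38) found in another gene. Promoter sequences are from RefSeq (GRCh38.p14), in which 42 of 48 members were found. Some genes of the marker and related lists are not reported here.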

Additional observations from a re-analysis of the deposited data

Results flagged for a closer look

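The change of DNAJB1 with R differed between the lines, by a test of that difference. It rose by 1.14 in U2932 and was at 0.04 in TMD8, which differ by 1.11 ± 0.18 on the log2 scale (edgeR interaction over 12 libraries, adjusted p = 0.0511). With the replicate block the difference was 1.11 (adjusted p = 0.0064). It was 1.01 without both TMD8 libraries that stood apart, a fit chosen after seeing the data that keeps a single TMD8 isotype library. The call at an adjusted p under 0.10 was lost when any single U2932 library, or either R library of TMD8, was left out. It was also lost in a fit of only the libraries compared. Under isotype DNAJB1 was 3.21-fold lower in U2932 than in TMD8.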

How the results depend on the processing

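In U2932 the members that rose numbered 30 with R and 26 with OF. They became 14 and 13 with all 12 libraries in 1 fit, and 14 and 13 with 1.5-fold as a further limit, and lay between 26 and 29 and between 22 and 28 when 1 library was left out. The 4 members that fell with R and the 4 with OF became 7 and 7 with library size only, 1 and 1 with all 12 libraries, and 1 and 0 with the 1.5-fold limit. Leaving out 1 library gave 2 to 5 with R, the 2 being without R replicate 1 or isotype replicate 2, and 3 to 5 with OF. In TMD8 the 0 members that rose with R became 5 by DESeq2, 4 with no filter, 2 with at least 10 counts in every library, 12 with all 12 libraries, 14 with the block, 2 with the correction for GC content and 14 with both, and 0 to 3 with 1 library left out (3 without isotype replicate 1). The 0 that rose with OF became 2 by DESeq2, 3 with no filter, 9 with all 12 libraries, 9 with the block, 3 with the GC correction and 10 with both, and 0 to 2 with 1 library left out (2 without isotype replicate 2). The 1 that fell with R became 0 with upper-quartile scaling, library size only, only the libraries compared or an adjusted p under 0.05, 3 with the block, 2 with block and GC correction, and 0 to 1 with 1 library left out (0 without R replicate 1, R replicate 2 or isotype replicate 2). The 0 that fell with OF became 1 by DESeq2, with no filter, all 12 libraries or the GC correction, 2 with the block, with or without that correction, and 0 to 1 with 1 library left out (1 without isotype replicate 2). Without both TMD8 libraries that stood apart, an alternative chosen after seeing the data, 19 rose and 5 fell with R, 15 rose and 4 fell with OF, and 3 differed between R and OF. The 1 interaction with R became 5 by DESeq2, 2 with library size only, 3 with no filter, 0 with only the libraries compared or an adjusted p under 0.05, 5 with the block, with or without GC correction, 0 to 3 with 1 library left out (3 without TMD8 isotype replicate 1, 2 without its replicate 2) and 14 without both libraries. The 0 with OF became 4, 1 and 2 in the first 3 of these, 1 with at least 10 counts, 3 with the block, 2 with the GC correction, 5 with both, 0 to 2 with 1 library left out (1 and 2 without TMD8 isotype replicates 1 and 2) and 10 without both. The difference between lines stayed between 11 and 15 members, and the share of members with 3 units was 11.9% within 100 bases. Alternatives were also counted for 30 results of single members, against isotype or in the interactions. These were the calls with an adjusted p under 0.10 and at least 1.5-fold in the main fit. For them 467 alternatives kept the call, 20 lost it and 0 reversed it. Calls of smaller changes, and those made only with the block, are not among them, so these numbers do not describe all genes named here. The cause of these changes was not tested. With library size only, the median of all genes in TMD8 with R was −0.16. Depth limits HSPA6, HSPB1, BAG3 and SERPINH1 in U2932, all under 5 CPM. Among the members in U2932, the block changed no call against isotype beyond those of HSF2, DNAJB6, TCP1 and HSBP1.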
